A study of Mus musculus with 3 samples.

Results

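The genes described here are 44 mouse genes that type I interferon switches on, measured by RNA sequencing of synovial cells kept on plates of 3 stiffness levels. They were chosen from the values themselves, as interferon response genes seen to peak in the library from the intermediate plate, so their peak there is a description and carries no test. All 44 of the 44 named genes were found among the 56833 genes of the deposited table. Each had at least 1 read in every library.

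The cells came from ankle synovium of Efhd1CreER; Ai9 mice, in which a Cre recombinase expressed under Efhd1 turns on the tdTomato reporter of the Ai9 allele, and were sorted for tdTomato. The labels call them telocytes, an interstitial cell type, and all 3 libraries share this genotype and this sort. Sorted cells were then kept for 24 h on CytoSoft plates coated with collagen, with 1 library per level. The soft plate had a stiffness of 0.2 kPa, the intermediate plate 8 kPa and the stiff plate 64 kPa. The mice's age, whether cells of several mice were pooled and how the CreER was induced are not given in the sources used here. The study asked how matrix stiffness bears on the differentiation of these cells into fibroblasts.

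With 1 library per level no difference below has a replicate check, no p-value is given, and a difference between cultures cannot be told apart from one between stiffness levels. The libraries held 25487064, 28081600 and 26474862 reads in the order soft, intermediate, stiff, of which the 44 genes took 0.0862%, 0.109% and 0.0700%. Values are normalized counts, gene counts that the authors scaled to the depth of each library. Log2 ratios between libraries were taken after adding 1 normalized count, and each is given with an exact 95% Clopper-Pearson interval on the reads, which covers counting error only, since reads copied by PCR are not independent molecules. Efhd1, the driver gene, was covered by only 10, 5 and 3 reads in the soft, intermediate and stiff libraries, so the gene that drives the Cre was nearly absent from the sequenced cultures. Genes of fibroblasts and genes of macrophages were both abundant. Pdgfra, a receptor of fibroblasts and telocytes, stood at 5884, 6298 and 5118 normalized counts, Kit at 42.0, 38.7 and 45.1 and Lyz2, a lysozyme of macrophages, at 18362, 21482 and 39173, each in the same order.

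Type I interferons are secreted proteins that bind a receptor made of the Ifnar1 and Ifnar2 chains on nearly every cell type. The receptor's kinases Jak1 and Tyk2 phosphorylate STAT proteins, among them Stat2, which join Irf9 in a complex named ISGF3. That complex binds a short element, the interferon-stimulated response element, in the promoters of its target genes. The products of those genes sense foreign nucleic acid, block viral RNA and its translation, or feed back on the pathway. Many of them are also expressed at a low level without infection, in fibroblasts and in macrophages.

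The core of that element, GAAA, then 2 bases of any kind, then GAAA (TTTC, 2 bases, TTTC on the other strand), was searched on both strands in the 250 bases before the start of each gene's canonical transcript in GENCODE vM39, on the GRCm39 genome. It matched in 18 of the 44 genes, 40.9%, against 3.25% of the 14113 genes that had a window and averaged at least 10 normalized counts over the libraries. Of the 31 matches, which may overlap one another, 29 began within 160 bases of the start, and 9 genes had 2 or more. The element of STAT dimers, TTCNNNGAA, matched in 7 of the 44, 15.9%, against 6.46% of the same 14113 genes. Among 89 interferon-stimulated genes outside the 44, at a mean of at least 10, the first element matched in 25.8% and the second in 7.87%. A match is a description of the letters and not a binding site, and a window without one says only that these letters are not there. The promoters of Isg15, Zbp1 and Ifit1 are shown because, among the genes with a match, these had the highest peaks in the intermediate library. They are read 5′ to 3′ toward the start, with matches in capitals.
Isg15 (chr4:156285304-156285553, minus strand): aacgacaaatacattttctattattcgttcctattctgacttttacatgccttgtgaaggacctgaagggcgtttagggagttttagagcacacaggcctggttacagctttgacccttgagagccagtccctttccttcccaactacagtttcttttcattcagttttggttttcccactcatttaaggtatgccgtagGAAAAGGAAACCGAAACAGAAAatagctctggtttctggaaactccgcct
Zbp1 (chr2:173060725-173060974, minus strand): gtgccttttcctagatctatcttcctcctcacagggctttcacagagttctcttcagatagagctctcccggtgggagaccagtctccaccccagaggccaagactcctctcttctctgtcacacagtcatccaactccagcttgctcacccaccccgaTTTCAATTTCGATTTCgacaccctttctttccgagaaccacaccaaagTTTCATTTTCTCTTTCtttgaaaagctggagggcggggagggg
Ifit1 (chr19:34618021-34618270, plus strand): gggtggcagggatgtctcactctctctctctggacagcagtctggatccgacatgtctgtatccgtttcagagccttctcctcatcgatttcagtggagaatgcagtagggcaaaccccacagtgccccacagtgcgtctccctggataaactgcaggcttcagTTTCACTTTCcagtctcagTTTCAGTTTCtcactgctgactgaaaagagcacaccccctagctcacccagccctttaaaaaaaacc
In Isg15 the 3 matches overlap in a single run that begins 50 bases before the start. Zbp1 has 4 matches in 2 runs, the first beginning 91 bases before the start. Ifit1 has 2 separate matches, 86 and 67 bases before it.

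Across the group, the intermediate library was highest for 39 of the 43 members averaging 10 or more normalized counts, a pattern found in 24.3% of all genes at that level. Since the genes were chosen for it, nothing is read from that count. The intermediate library exceeded both others beyond counting error for 28 of the 43, against 3.55% of all genes. Summed over the 44 genes, the level was 22518 on the soft, 28893 on the intermediate and 19013 on the stiff plate. The log2 ratio of these sums was 0.36 for intermediate to soft, with a counting interval of 0.33 to 0.38, and -0.60 for stiff to intermediate (-0.63 to -0.58). The stiff library was the lowest of the 3, at -0.24 against soft (-0.27 to -0.22).

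The median gene was 0.37 higher on the log2 scale in the intermediate than in the soft library, where the median of all genes was 0.0096. From intermediate to stiff the median was -0.57 (all genes 0.0065) and from soft to stiff -0.26 (all genes 0.00044). Of the 38 members averaging 50 or more normalized counts, 12 were higher in the intermediate than in the soft library by a log2 ratio of at least 0.5, and none was lower by that much. Among all 11873 genes at that mean, 3.94% were higher and 0.657% lower by this rule. Intermediate to soft is called the first step below and stiff to intermediate the second. In the second step 22 of the 38 were lower in the stiff library and none was higher, against 3.42% of all genes lower and 5.42% higher. By the stricter rule of a log2 ratio of 1, 6 of the 38 were lower in this step, against 0.421% of all genes. These were Ifit1, Ifit3, Ifit3b, Isg15, Usp18 and Ifi44, and none of the 38 was past 1 in the first step. Both steps contain the library by which the genes were chosen, so the shares stand beside these counts without a reading.

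**Figure D1:**
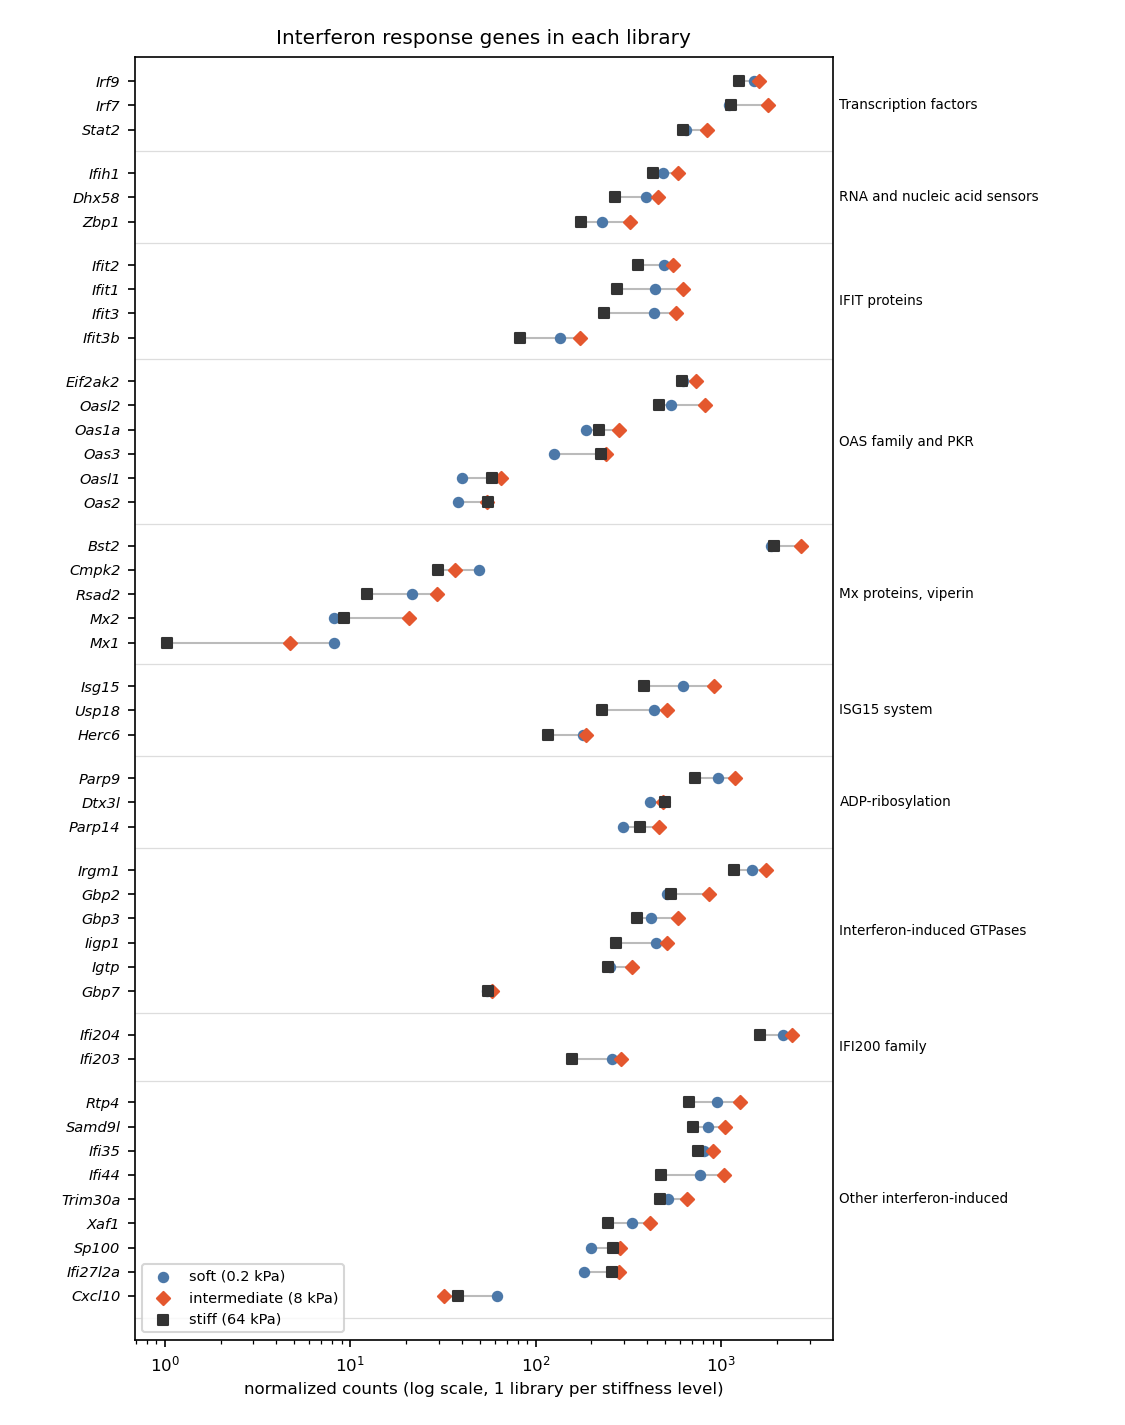
Normalized counts of the 44 interferon response genes (log axis) in the soft (circle), intermediate (diamond) and stiff (square) library, 1 library each, grouped by role. The diamond lies furthest right for 39 genes, and the exceptions are Oas2, Dtx3l, Cmpk2, Mx1 and Cxcl10.

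The transcription factors of the group differed in how far they stood apart. Irf7, the factor that amplifies interferon production and is itself induced, lies on chromosome 7 from 140842619 to 140846398 on the minus strand of GRCm39. It stood at 1099, 1779.8 and 1124 normalized counts, in the order soft, intermediate, stiff that is kept for all such triplets. The intermediate library was thus high and the others were close to each other. The log2 ratio was 0.70 in the first step (0.59 to 0.81) and -0.66 in the second (-0.77 to -0.56), and 0.032 from soft to stiff (-0.09 to 0.16). Stat2, the STAT specific to this receptor, had the same shape at lower values, 645, 835 and 619. Irf9, which gives ISGF3 its binding to DNA, stood at 1510.1, 1591 and 1252, so its first step of 0.076 lay within counting error (-0.026 to 0.18) while its second, -0.35, did not (-0.45 to -0.24).

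Of the sensors, Ifih1 (MDA5) binds long double-stranded RNA, Dhx58 (LGP2) modulates that sensing, and Zbp1 binds nucleic acid in the Z form. All 3 exceeded counting error in both steps. Zbp1 stood at 227 on the soft, 324 on the intermediate and 175 on the stiff plate. Its ratios were 0.52 and -0.88, while those of Dhx58 were 0.22 and -0.78 and those of Ifih1 0.27 and -0.45. In the stiff library Dhx58 was below the soft one too, at -0.56 (-0.80 to -0.34).

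The IFIT proteins bind viral RNA with foreign 5′ ends, and their genes lie together on chromosome 19 between 34527932 and 34632174. Ifit1 stood at 442, 620.3 and 275, Ifit2 at 494, 547 and 355 and Ifit3 at 436, 570.3 and 235 normalized counts. In all 4 genes the stiff library was the lowest. From intermediate to stiff the log2 ratio was -1.17 for Ifit1 (-1.38 to -0.97), -1.28 for Ifit3 (-1.51 to -1.06) and -0.62 for Ifit2. In the first step Ifit1 was at 0.49 and Ifit3 at 0.39, whereas Ifit2, at 0.15, lay within counting error (-0.031 to 0.32). Ifit3b, at 135, 173 and 82.0, has a canonical transcript 97.2% identical to that of Ifit3 over 2030 nt, so reads of this pair may have been split uncertainly.

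The ISG15 system showed the same low stiff library. Isg15, a ubiquitin-like modifier and among the most strongly induced interferon targets, lies on chromosome 4 from 156283883 to 156285303 on the minus strand. It stood at 626 on the soft, 913 on the intermediate and 384 on the stiff plate. The first step was 0.54 (0.40 to 0.69) and the second -1.25 (-1.43 to -1.08), and the stiff library lay below the soft one, at -0.71. Usp18 removes ISG15 from proteins and also blocks the receptor as a feedback inhibitor. It had 434, 513 and 229 normalized counts and the lowest stiff to soft ratio of the members with a mean of at least 50, -0.92 (-1.16 to -0.69). Herc6, the mouse ligase for ISG15, stood at 179, 188 and 116, level between soft and intermediate within counting error (-0.24 to 0.37) and lower in the stiff library.

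The oligoadenylate synthetases make the messenger that activates RNase L on sensing double-stranded RNA. Oas3 stood at 126 on the soft, 239 on the intermediate and 226 on the stiff plate. The soft library was low and the others lay together: its first step of 0.91 (0.60 to 1.24) was the highest of the members with a mean of at least 50, and its second, -0.08, lay within counting error (-0.35 to 0.19). Oas1a had 188, 280.0 and 219 and Oas2 37.9, 54.7 and 55.4 normalized counts, and the genes of all 3 lie between 120868398 and 121046449 on chromosome 5. Oas1a exceeded counting error in both steps, at 0.58 (0.31 to 0.85) and -0.35 (-0.61 to -0.093), while Oas2 did so in neither. The stiff library was above the soft one by 0.83 for Oas3 (0.51 to 1.17), and by 0.23 and 0.53 for Oas1a and Oas2, whose intervals include 0. Reads of Oas1a may be shared with Oas1g, 97.6% identical over 1861 nt.

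The related Oasl1 and Oasl2, OAS-like proteins with ubiquitin-like domains, lie next to each other elsewhere on chromosome 5 and differed from each other. Oasl2 stood at 539, 815 and 460.4, with steps of 0.60 and -0.82, both beyond counting error. Oasl1, at 40.0, 65.0 and 58.5, had steps of 0.69 (0.12 to 1.31) and -0.15 (-0.69 to 0.37), so only the first exceeded it. Eif2ak2 (PKR), the kinase that halts translation on binding double-stranded RNA, stood at 626, 734 and 615, with small steps of 0.23 and -0.25, both beyond counting error.

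By counting intervals, 34 of the 43 members averaging 10 or more normalized counts were higher and 1 was lower in the first step, and none was higher and 33 were lower in the second. Of all genes at that mean, 19% were higher and 11.9% lower in the first step, and 23.3% were higher and 19.4% lower in the second. The choice of members used these libraries, so nothing is read from these counts.

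**Figure D2:**
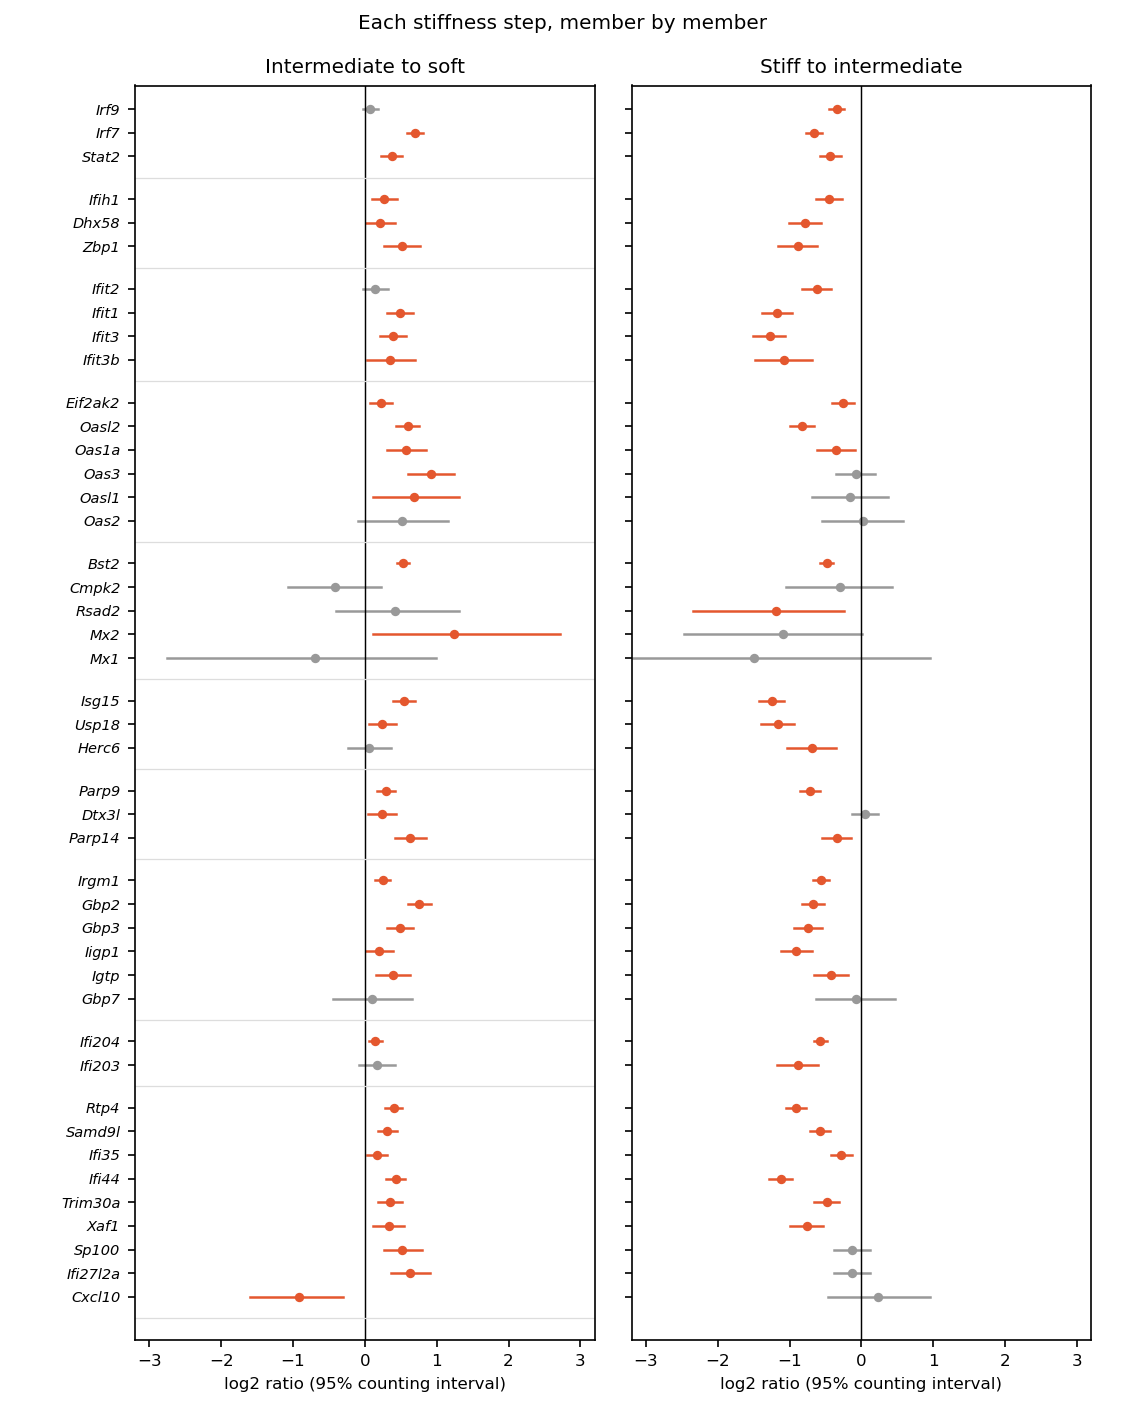
Log2 ratios of the 44 genes in each stiffness step (points) with 95% counting intervals (lines), red where the interval lies outside 0. In the first step 34 intervals lie above 0 and that of Cxcl10 below, in the second 33 lie below 0 and none above, all of them among the 43 members averaging 10 or more. The Mx1 interval of the second step runs past the axis, to -7.76.

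Among effectors that act on the virus particle or its genome, Bst2 (tetherin), which holds budding virus at the cell surface, was the most abundant member also per length, at a mean of 2677 normalized counts per kb of transcript. It stood at 1865 on the soft, 2688 on the intermediate and 1921 on the stiff plate. Only the intermediate library stood out: the steps were 0.53 (0.44 to 0.61) and -0.48 (-0.57 to -0.40), and soft and stiff were within counting error of each other (-0.051 to 0.14). The other 4 effectors of this role had few reads. Rsad2 (viperin), which makes a chain-terminating nucleotide, was covered by 21, 31 and 12 reads and Cmpk2, its neighbour on chromosome 12, by 48, 39 and 29. The dynamin-like GTPases Mx1 and Mx2 had 8, 5 and 1 and 8, 22 and 9 reads. Means per kb were 5.56 for Rsad2, 5.26 for Mx2 and 1.72 for Mx1. Mx1 was the 1 member below a mean of 10 normalized counts. It is also a gene whose product is defective in many laboratory strains, and the strain is not given here. The Mx1 and Mx2 transcripts are 96.1% identical over 646 nt.

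Cmpk2, Mx1 and Cxcl10 were the 3 members whose highest library was the soft one. Cmpk2 and Mx1 differed from the intermediate library within counting error (-1.07 to 0.22 and -2.76 to 0.99 on the log2 scale). Cxcl10, a chemokine for activated T cells that also responds to NF-kappaB, was the exception with 60, 34 and 37 reads. Its intermediate library lay below the soft one, at -0.92 (-1.59 to -0.31), opposite to the group. Its close relative Cxcl9, not one of the 44, ran the other way at 81.0 on the soft, 146 on the intermediate and 65.6 on the stiff plate, with steps of 0.84 (0.45 to 1.26) and -1.14 (-1.60 to -0.73).

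The interferon-induced GTPases attack the vacuoles that shelter intracellular microbes. Gbp2, on chromosome 3 from 142326349 to 142343779 on the plus strand, had the highest peak of the 38 members with a mean of at least 50. It stood at 507 on the soft, 859 on the intermediate and 538 on the stiff plate. Its steps were 0.76 (0.60 to 0.92) and -0.67 (-0.83 to -0.52), with soft and stiff within counting error of each other. The height of a peak is here the smaller of its log2 ratios against the soft and against the stiff library. It was 0.67 for Gbp2, followed by 0.66 for Irf7, 0.60 for Oasl2, 0.54 for Isg15 and 0.52 for Zbp1. These 5 genes ranked 14, 16, 20, 26 and 36 of 11873 genes by this height. A height of at least 0.5 was reached by 0.354% of all genes. Because the members were chosen for this peak, nothing is read from their ranks.

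The neighbours of Gbp2 on chromosome 3 differed from it: Gbp3 stood at 416, 585 and 349.7 and Gbp7 at 54.3, 58.4 and 55.4, and both steps of Gbp7 lay within counting error. Irgm1, a regulator of the family, was the most abundant of these GTPases per length, at 702 normalized counts per kb. It stood at 1470.1, 1743 and 1179, with a smaller first step (0.25) than second (-0.56). Igtp (Irgm3) stood at 251, 329.9 and 246 and Iigp1 (Irga6) at 443, 510.0 and 272. The stiff to soft ratio was -0.70 for Iigp1 (-0.93 to -0.48), whereas for Igtp the libraries were within counting error of each other (-0.29 to 0.23).

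Parp9, Dtx3l and Parp14 are encoded side by side on chromosome 16, between 35653231 and 35792980, and act in ADP-ribosylation, Parp9 and Dtx3l as a complex. They did not share a pattern. Parp9 stood at 965, 1183 and 719.9, highest in the intermediate and lowest in the stiff library. For Dtx3l, at 411, 485 and 500.4, the intermediate and stiff libraries were level within counting error (-0.14 to 0.23) and the soft one low. Parp14, at 297, 461 and 364, was highest in the intermediate library, with the soft one lowest.

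Ifi204, a DNA-binding protein of the IFI200 family, was second only to Bst2 in mean per kb, at 849. It stood at 2162, 2395 and 1610.0, with a small first step (0.15, 0.064 to 0.23) and a larger second (-0.57, -0.66 to -0.48). Ifi203, at 257, 289 and 157, had a stiff to soft ratio of -0.71. This family holds near-identical copies: Ifi204 is 96.7% identical to Ifi211 over 1487 nt, and Ifi203 98.2% identical to Ifi203-ps over 1106 nt, so the division of reads among them is uncertain.

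Another 8 members have various roles. Ifi44, an antiproliferative protein, stood at 773, 1041 and 477, and Rtp4, a chaperone of receptors, at 953, 1259 and 669.7. Both were lowest in the stiff library, at -0.70 and -0.51 against soft. Xaf1, a promoter of apoptosis, stood at 329, 414 and 244, Samd9l, which restrains translation, at 849.9, 1053 and 709, and Trim30a, a regulator of Toll-like receptor signalling, at 516, 656 and 469.7. Ifi35 was the flattest of the 8, at 805, 906 and 748. Reads of Trim30a may be shared with Trim30d, 90.3% identical over 1753 nt. Sp100, a component of nuclear bodies, stood at 198, 285 and 260.5 and Ifi27l2a at 182, 283 and 258, and in both the soft library was low while the second step lay within counting error.

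**Figure D3:**
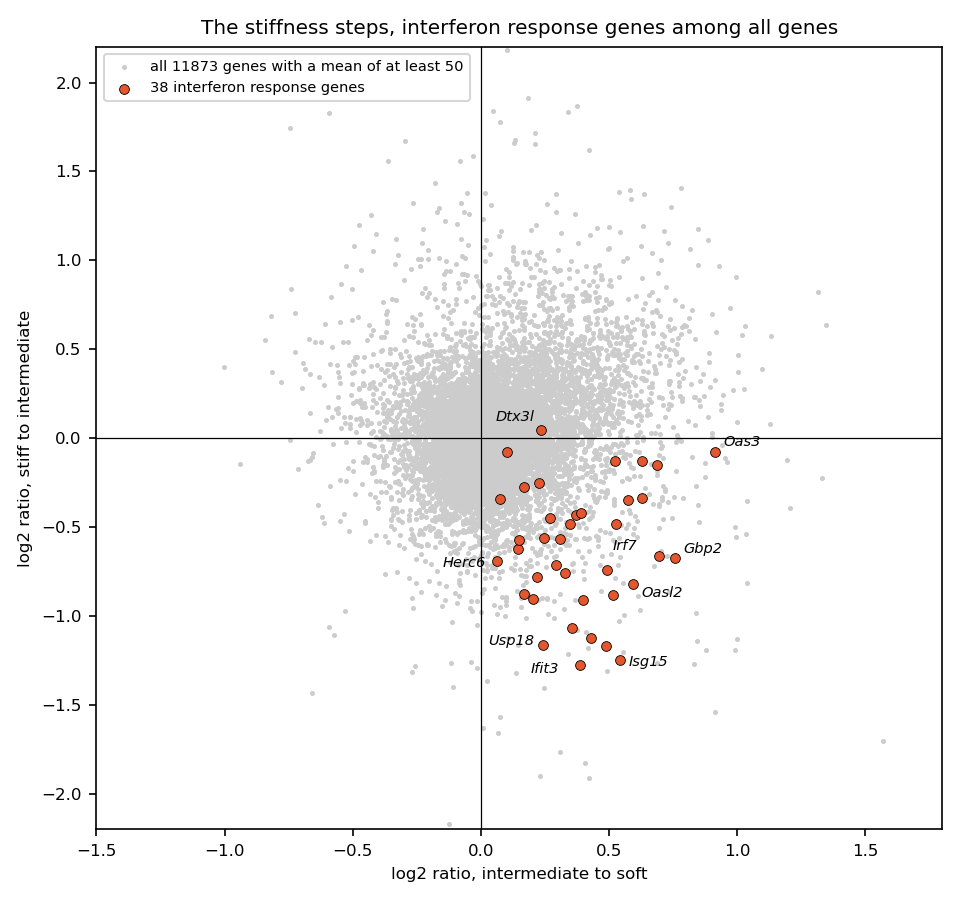
Log2 ratio of stiff to intermediate against that of intermediate to soft for the 11873 genes averaging 50 or more normalized counts (grey; 6 lie outside the axes) and the 38 interferon response genes among them (red). The axes share the intermediate library, so noise in it moves a gene toward the lower right or upper left. The red points lie right of 0, and all but Dtx3l lie below 0.

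Against soft, the stiff library divided the 44 genes. Among the 38 members averaging 50 or more normalized counts, 11 were lower in the stiff library by at least 0.5, among them Usp18, Ifit3, Ifit3b, Isg15, Iigp1 and Ifi44, against 3.77% of all genes. Oas3 and Oasl1 were higher by that much, 2 of the 38, against 11.8% of all genes, and the counting interval of Oasl1 included 0 (-0.065 to 1.17). The other 25 lay within 0.5 of soft. By counting intervals, 23 of the 43 members averaging 10 or more were below soft, against 22.8% of all genes at that mean, and 5 were above, against 27.6%. Those above were Oas3, Ifi27l2a at 0.50, Sp100 at 0.39, Parp14 at 0.29 and Dtx3l at 0.28. Genes side by side did not always go together, as Parp9, at -0.42, and Oasl2, at -0.23, show beside their neighbours.

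The promoter element was set against this division after both had been seen. Of the 10 members with the lowest stiff to soft ratio and a mean of at least 10, 8 had a match in the window, among them Usp18, Ifit3, Isg15 and Ifit1, and of the 10 highest 2 had one, Oas3 and Oas2. For the 15 members with a match and a mean of at least 50 the median stiff to soft ratio was -0.51, and for the 23 without it was -0.11. Their median first steps were 0.37 and 0.33, so the gap lay in the second step, at -0.88 and -0.45. These are descriptions over genes of 1 pair of libraries.

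**Figure D4:**
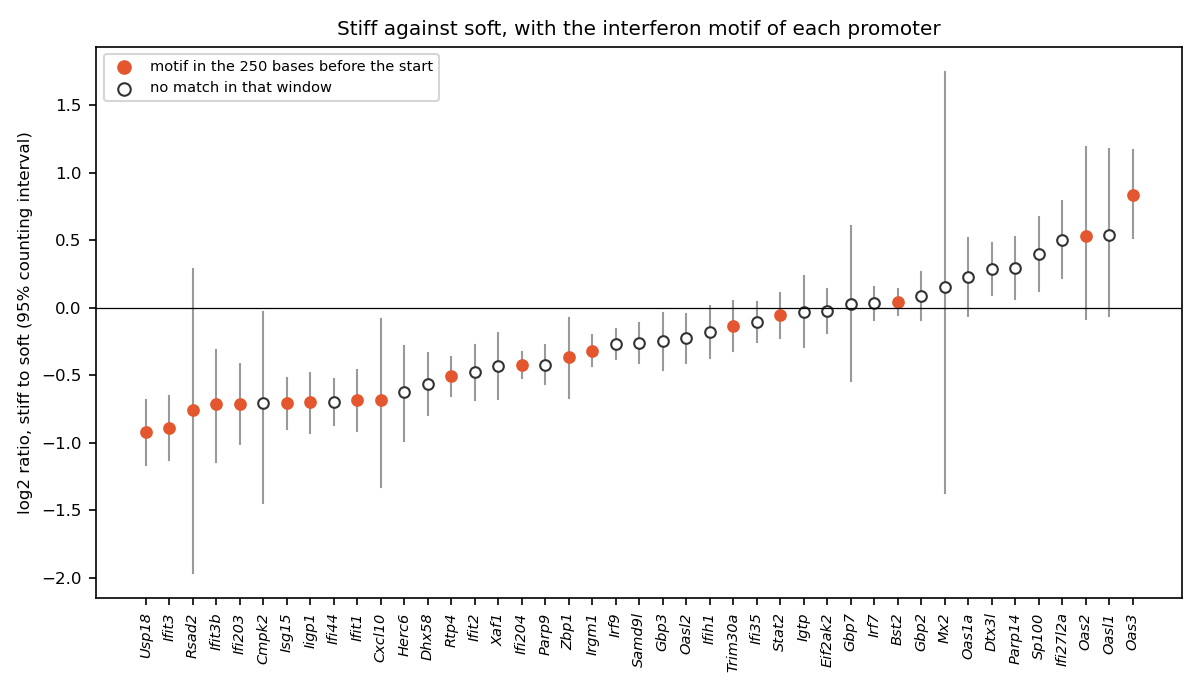
Log2 ratio of stiff to soft, with 95% counting intervals, for the 43 members averaging 10 or more normalized counts, in order of the ratio. Filled points have the element of 2 GAAA blocks in the 250 bases before the start, and 8 of the 10 lowest but 2 of the 10 highest are filled.

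Ratios over all genes varied with the length and GC content of their transcripts. For stiff to soft, Spearman's rho across 14114 genes of these libraries came to 0.24 for transcript length and 0.21 for GC content. Across the 43 members it was 0.086 and 0.37. Canonical transcripts of the members had a median of 2770 nt, against 3251.5 nt over all genes. With a local trend over both features subtracted, the median ratio of the members was 0.41 in the first step, -0.53 in the second and -0.21 from soft to stiff. Isg15 was then at -0.52 from soft to stiff, Usp18 at -0.85 and Oas3 at 0.62.

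The upstream components were taken from a list of ligands, receptors, signal carriers, inhibitors and sensors. No read was counted in any library for Ifnb1, for the 14 alpha and alpha-beta genes listed, or for Ifne, Ifnk, Ifnl2, Ifnl3 and Ifng. A count of 0 allows up to 3 reads, or 3.08, 2.83 and 3.08 normalized counts. Of the 21 listed ligand genes only Ifnz had any, with 0, 1 and 2 reads. Both chains of the receptor were well expressed and differed little: Ifnar1 stood at 1965, 2162 and 2019 and Ifnar2 at 1361, 1491 and 1607. For Ifnar1 the first step was 0.14 (0.049 to 0.23) and the second -0.10 (-0.19 to -0.011), each narrowly beyond counting error, and the steps of Ifnar2 were 0.13 and 0.11. The interferon gamma receptor chains Ifngr1, at 2167, 2089 and 2261, and Ifngr2, at 3222, 3346 and 3068, and the shared chain Il10rb, at 1024, 1081 and 1109, were as level. Ifnlr1, the lambda receptor chain, had 8, 8 and 11 reads.

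Over the 32 pathway genes with a mean of at least 50, 1 was higher in the intermediate than in the soft library by 0.5 (Ptpn6). By the same rule 3 were higher in the stiff than in the intermediate library (Irf8, Tlr7 and Ptpn6). The shares of all genes at that mean were 3.94% and 5.42%. Rigi, listed in the table under its older symbol Ddx58, senses RNA with a 5′ triphosphate and is also induced by interferon. It had the highest peak of these genes, at 1981, 2456 and 1962, with a height of 0.31. Among the sensors, adaptors and kinases of interferon induction alone, Ikbke, a kinase, came next, at 375, 440.2 and 404. Trim25, a ligase that acts on Rigi, followed at 2530.2, 2664 and 2342. The DNA sensor Cgas stood at 159, 129 and 137, highest in the soft library, and Traf3, an adaptor of the same induction, at 671, 788 and 948, highest in the stiff one. Among the carriers of the signal, the receptor kinase Tyk2 stood at 519, 601 and 537 and Irf1 at 542, 586 and 535, with second steps within counting error (-0.33 to 0.0064 and -0.30 to 0.039). Irf3, which starts interferon transcription, stood at 803, 855 and 876 and Irf2, which can repress targets, at 566, 689 and 719.9. Of the inhibitors, Socs1, which blocks the kinases, stood at 439, 416 and 325, Socs3 at 3481, 3485 and 3291 and Pias1, an inhibitor of STAT signalling, at 1220.0, 1163 and 1068, none with a height above 0.01. The phosphatases Ptpn2 and Ptpn11 stood at 883, 823 and 779 and 6213, 6378 and 7311. Irf8, Tlr7 and Ptpn6, which are typical of myeloid cells, were higher at each stiffer level, with stiff to soft ratios of 0.92, 0.95 and 1.27.

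A further list held 112 interferon-stimulated genes outside the 44, of which 111 were analysed, 91 with a mean of at least 10. The intermediate library was highest for 61 of these 91 (24.3% of all genes at that mean), and it exceeded both others beyond counting error for 20 (3.55% of all genes). The median ratio was 0.21 in the first step, -0.19 in the second and 0.052 from soft to stiff. Of 75 averaging 50 or more, 9 were higher in the intermediate than in the soft library by 0.5 and none lower, against 3.94% and 0.657% of all genes. In the second step 13 were lower and 1 higher, against 3.42% and 5.42%. The 44 genes had been chosen for their peak, and this list was drawn up with earlier results of these data known. Some of its genes, such as Oas1g and Ifi211, have transcripts near-identical to those of members. Nothing is read from its counts, and the distance between its medians and those of the 44 was not compared further. Among these 75, the highest peaks were those of Cxcl9 (0.84), of Slfn8, a member of the Schlafen family, at 136, 226 and 143, and of Ifi205, at 89.2, 116 and 54.4. The lowest heights among the 75 were those of Bst1 (-0.67), Casp1 (-0.46) and Ifi30 (-0.37), all highest in the stiff library. The abundant Ifitm3, which blocks viral entry, stood at 20659.5, 22377 and 17993.

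Genes of antigen presentation and targets of NF-kappaB, which share inducers with interferon genes, served as neighbours. For 18 antigen presentation genes, 4 of which are also in the further list, the medians were 0.22 and -0.17 in the steps, and 15 were highest in the intermediate library. For 26 NF-kappaB targets the medians were 0.26 and -0.041, and 11 were highest there. Of all genes with a mean of at least 10, 24.3% were highest in that library. At a mean of at least 50, the highest peaks of the 2 lists, picked out after their values were seen, were that of H2-Q4, a class I heavy chain, at 366, 533 and 361, and that of the cytokine Il1b, at 135, 178 and 112. The differences between lists were not tested.

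Markers of other cell types were read beside these results, since in RNA from many cells fewer cells of a type cannot be told apart from less RNA per cell. All 17 macrophage markers had reads, and their summed level was 32771 on the soft, 40723 on the intermediate and 70546 on the stiff plate. Of the 16 with a mean of at least 10, 15 were highest in the stiff library and Fcgr1 in the intermediate one. Their median ratios were 0.44 and 0.77, so in the second step the macrophage genes and the interferon genes stood in opposite directions, and in the first in the same. The part of macrophage RNA in the interferon values was not tested. Of 8 markers of plasmacytoid dendritic cells, the professional producers of interferon, Siglech, Klk1 and Cd209d had no read. The sum of the list, 809.9 on the soft, 1020.0 on the intermediate and 1035 on the stiff plate, was nearly all Runx2, a gene that mesenchymal cells express. Of 11 T and NK cell markers 5 had no read, among them Cd3e, Cd3d and Ncr1, with a sum of 45.1 on the soft, 43.4 on the intermediate and 52.3 on the stiff plate. Of 5 B cell markers 4 had none. For monocytes and neutrophils 5 of 9 had none, Ly6c2 and S100a9 among them, and the sum, 260.4 on the soft, 258 on the intermediate and 246 on the stiff plate, was mostly S100a8. The endothelial sum was 57.4 on the soft, 79.2 on the intermediate and 86.1 on the stiff plate, with Cldn5 at 0. The fibroblast sum was 246969 on the soft, 292951 on the intermediate and 349566 on the stiff plate, in large part collagens. From soft to stiff 6 of the 10 fibroblast genes had ratios above 0 and 4 below, with a median of 0.19 (0.025 with the trend over length and GC content subtracted). The mural sum was 10108 on the soft, 11605 on the intermediate and 10790.3 on the stiff plate.

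**Figure D5:**
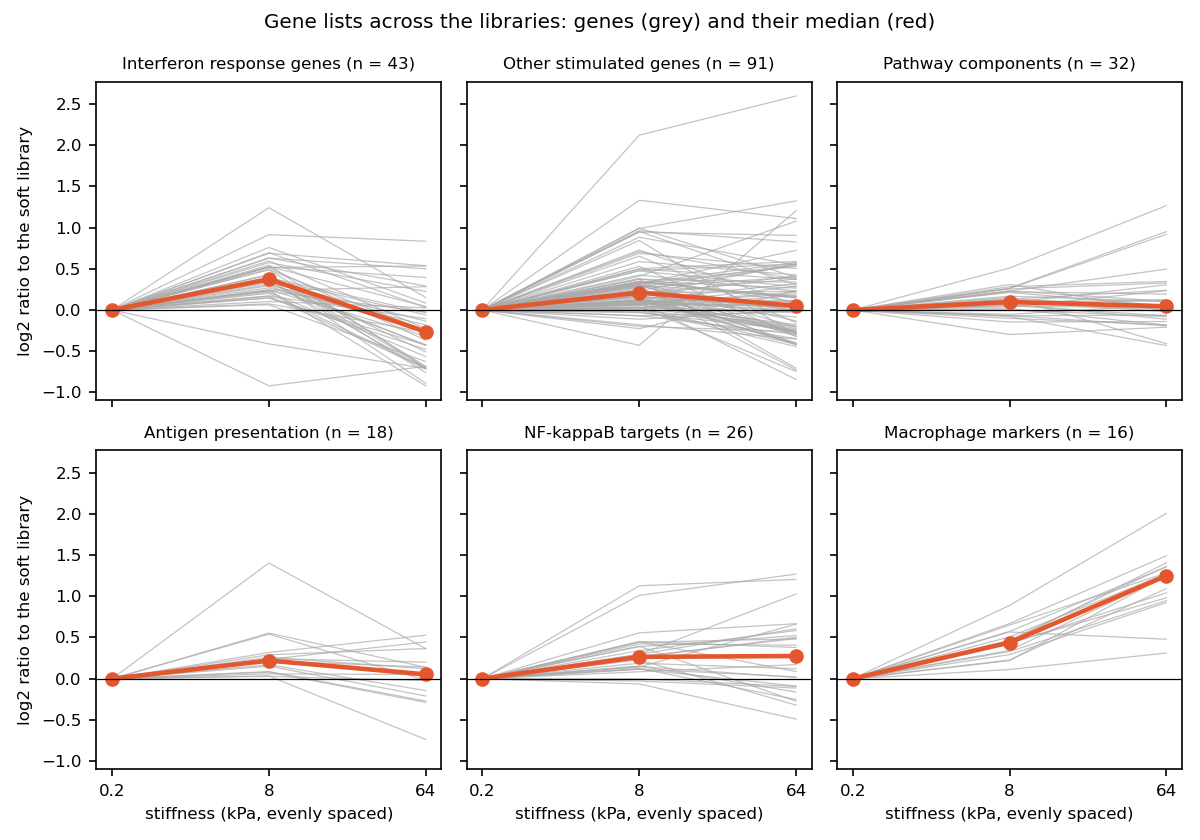
Log2 ratio to the soft library at 0.2, 8 and 64 kPa for single genes (grey) and their median (red) in 6 lists, over genes averaging 10 or more normalized counts. The median of the interferon response genes is 0.37 at 8 kPa and -0.26 at 64 kPa, whereas that of the macrophage markers is 0.44 and then 1.25.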

How the data were processed

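The deposited signal values are gene counts that the authors divided by 1 size factor per library. The submitters' processing notes name bcl2fastq 2.20.0, STAR 2.7.9a, featureCounts from Subread 2.0.1, DESeq2 1.34.0 and the build GRCm39, and the labels give a stranded mRNA kit. The annotation and the strand setting of the counting are not given in the sources used here. The 3 deposited files hold the same table, so 1 was read, with each column mapped to the sample of that title. All values (100%) were within 0.01 of whole multiples of the column's smallest positive value, and reads were recovered by dividing by it. A count test on them needs replicates and was not run.

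The members and all lists were chosen with earlier results of these data known. All 44 members are named, with full values for the highest and lowest peaks, the most abundant of each role and those not highest in the intermediate library. Calls used a log2 ratio of 0.5 and a mean of 50, medians a mean of 10. Members were matched by symbol (44 of 44) to GENCODE vM39 of GRCm39 for positions, promoters, lengths and GC content. Near-identical transcripts were searched with blastn 2.17.0, keeping alignments of at least 90% identity over at least 15% of the transcript. The length and GC trend was a robust local linear fit over 300 neighbouring genes. The interval and ratio step was checked on data simulated for intermediate to soft. There 200 of 11873 genes were changed by a log2 ratio of 1: 100% were recovered, with 39 false calls. The simulated reads varied by counting error only, so these figures give no error rate for the real libraries. Alternatives were other pseudocounts, minimum means, folds, 4 scalings (TMM from edgeR 4.0.16 among them) and the trend. Work was done in Python 3.11.15 with scipy 1.17.1, matplotlib 3.10.9, pandas 2.3.3, scikit-learn 1.9.0 and numpy 2.4.6. Protein sequences were not used here, and values of 1 listed pathway gene are not reported here.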

Additional observations from a re-analysis of the deposited data

How the results depend on the processing

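No paired analysis was possible because each stiffness level has 1 library, and leaving out a replicate and a count test were not run for the same reason. The trend correction acts on single-gene ratios and was not run on summed reads. Over the alternatives run, the median ratio of the members lay between 0.34 and 0.41 for intermediate to soft, between -0.62 and -0.53 for stiff to intermediate and between -0.32 and -0.21 for stiff to soft. With the trend subtracted, 39 of 43 genes were highest in the intermediate library, as without it, and under the 4 scalings 39 or 40 were. The summed ratio of the 44 genes left its counting interval under upper quartile scaling (0.32 intermediate to soft, -0.30 stiff to soft), under scaling to total reads (-0.64 stiff to intermediate, -0.30 stiff to soft) and without Bst2 (-0.27 stiff to soft), each with the same sign. These scalings shift all genes by at most 0.058. Counts depended on the fold by construction: at a log2 ratio of 1 they were 0, 6 and 0 of 38 for intermediate to soft, stiff to intermediate and stiff to soft, and at 0.25 the first was 25 and the last 26. For the other interferon-stimulated genes the intermediate to soft median was 0.16 with a mean of at least 200 and 0.18 under upper quartile scaling. Their stiff to soft median, near 0, changed sign to -0.0032 under scaling to total reads and -0.0057 under upper quartile scaling. The cause of these moves was not tested. Of 129 ratios of single members, 5 left their counting interval with the trend subtracted, and no ratio past 0.5 changed sign under any alternative. Depth limits Mx1, Mx2, Rsad2, Cmpk2, Cxcl10, Oas2, Oasl1 and Gbp7, whose intervals are wide.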

Other observations

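Outside the interferon lists, 5 genes had the highest peaks in the intermediate library at a mean of at least 50 normalized counts. The mitochondrial gene mt-Atp6 stood at 61.5, 759 and 32.8 in the soft, intermediate and stiff libraries, a height of 3.60 that no interferon gene approached. Fosb and Egr3, transcription factors of the early response to stimulation, stood at 155, 461 and 140.5 and 1324, 2495 and 856. Tnfaip8l1 stood at 46.1, 93.3 and 42.0, and Serpina3f, a protease inhibitor, at 62.5, 125 and 54.4.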
